A study of Brassica rapa and Brassica oleracea and Brassica napus with 3 samples.

Results

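Genes of *Brassica napus* with alternative transcript starts were taken from the annotation of cultivar ZS11 as it appears in the methylation table. A gene was a member when it had several annotated transcripts and the methylation values in the upstream flank were not identical for all of them, since transcripts that begin at the same base have the same flank. On the numbered chromosomes A01 to A10 and C01 to C09, 1823 of 96916 genes (1.88%) were members. They made up 44.6% of the 4091 genes with several transcripts. Another 2268 genes had several transcripts with 1 shared flank, and 92825 genes had 1 transcript.

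The measurements came from 1 bisulfite sequencing (BS-seq) library of young leaves of ZS11 plants, 14 d old by the labels, one of 3 libraries in a study that set *B. napus* beside *Brassica rapa* and *Brassica oleracea*. Bisulfite leaves methylated cytosines as they are and turns the others into bases that sequence as thymine. The study's methods treat genomic DNA with bisulfite, but the extraction protocol in the labels of this sample is one for RNA. The plants were grown in hydroponic culture, and the library had no replicate, so no test was made and spreads below are the SD of chromosome values (10 An and 9 Cn chromosomes of 1 library, which are not replicates).

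*B. napus* is an allotetraploid that carries an A subgenome (An) and a C subgenome (Cn). Many plant genes can be transcribed from more than one start, and the choice of start sets which promoter is used, how long the 5′ untranslated region (UTR) is and at times whether the protein keeps its first part. Plant DNA is methylated at cytosines in several sequence contexts. Dense methylation is typical of transposons and of the repeats between genes, the region just before a start is usually low in methylation, and gene bodies of many expressed genes carry moderate methylation in the CG context. Methylation of a binding site can hinder some transcription factors.

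Each row of the table gave the methylated fraction of cytosines in 12 bins, with 4 bins upstream, 4 in the body and 4 downstream, in the direction of transcription. Bin 4 was the upstream bin next to the start. The upstream level of a start was the mean of its 4 upstream bins, in percent, where at least 2 had a value. The start whose flank matched that of the gene row, which spans all transcripts, was called the outer start, and the other distinct starts were called inner starts. This order was not certain for every gene. In the 28 pairs that shared coding exons could order, the transcript with the gene row's start began coding upstream in 17 and downstream in 11. This orders the first coding exons, and the order of the transcript starts themselves can differ. By exon ends, the first exon of 892 inner transcripts ended at a later exon of an outer transcript, and in 236 inner transcripts a later exon ended at the first exon of an outer transcript. The number of reads behind a bin, the cytosine context and the width of a bin were unknown, so a value of 0 could not be told from a poorly covered bin. Flanks of starts that lie close together overlap and share cytosines, and the flank of an inner start can overlap the gene body.

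Promoter sites listed by the study were at hand for 15 members, with 39 sites, from a table held only in part, so no share of promoters was computed. Sites are shown for the 2 members whose listed sites contain a CG, because CG is one of the contexts in which plant DNA is methylated. In BnaA01G0071600ZS, on chromosome A01, 7 listed sites overlapped and were joined into the first run below, in which CACGTG (the G-box core, its own reverse complement) is in capitals. For BnaA01G0044100ZS, on the same chromosome, the site is named for a GATA factor and its CG dinucleotides are in capitals. The strand relative to the genes was not given.
BnaA01G0071600ZS, joined sites: aaactatattttatgcCACGTGtcatct
BnaA01G0044100ZS, GATA19 site: CGgatCGgat

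The joined run of 28 bases held sites named for bZIP48, ABF2, bZIP3, AREB3 and ABI5, all bZIP factors, beside 1 site named for an ARID factor. bZIP is a family that in *Arabidopsis thaliana* includes regulators of abscisic acid responses. The outer start of BnaA01G0071600ZS, shared by 4 transcripts, had no value in bin 1 and levels of 25%, 36.6% and 6.56% in bins 2 to 4. Its inner start, used by 1 transcript, had 36.6%, 6.44%, 0% and 0% in bins 1 to 4. The value of 36.6% (36.5854% in both rows) stood in bin 3 of the outer flank and in bin 1 of the inner flank. The next bins, at 6.56% and 6.44%, were close but not identical. Both flanks may thus have read the same stretch, which was not determined without coordinates. The highest bin was farther from the start in the inner flank. The mean level was 22.7% at the outer and 10.8% at the inner start. In BnaA01G0044100ZS the outer start had 1.48%, 0%, 0% and 24.4%, and the inner start had 1.39%, 0%, 0% and 32.2%. Here the bin beside the start was the only methylated one at both starts, and the inner start was the higher one. Which of these bins holds the printed sites was not determined.

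Members were found on every numbered chromosome. They were 872 of 44359 An genes (1.97%) and 951 of 52557 Cn genes (1.81%), and the share by chromosome ran from 1.45% on C02 to 2.45% on A10. Of all members, 1480 had 2 distinct starts, 246 had 3, 74 had 4, 19 had 5 and 4 had 6. Their 5007 transcripts gave 2290 inner starts. A row for a 5′ UTR was present for 1807 of the 1823 outer starts (99.1%) and 2202 of the 2290 inner starts (96.2%). The outer start belonged only to transcripts with a numbered suffix in 1245 members and to the unsuffixed transcript in 578. In most members the unsuffixed transcript thus did not have the start called outer.

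Most alternative starts of a gene had nearly the same upstream level. The range, that is the highest minus the lowest level among the starts of a gene, could be computed for 1811 members and had a median of 0.444 percentage points (SD of chromosome medians 0.211) and a mean of 2.42. It was at least 0.5 points in 864 members (47.7%), at least 1 point in 670 (37.0%) and at least 5 points in 254 (14.0%). A range of 10 points or more was found in 126 members (6.96%). Among all genes with several transcripts, where a shared flank counts as a range of 0, the same 126 genes were 3.13%. For scale, the upstream levels of neighbouring genes on a chromosome differed by 10 points or more in 36.1% of pairs, with a median difference of 6.45 points. Alternative starts of 1 gene thus lay closer in level than the flanks of adjacent genes did, and the flanks of 1 gene can share cytosines.

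**Figure D1:**
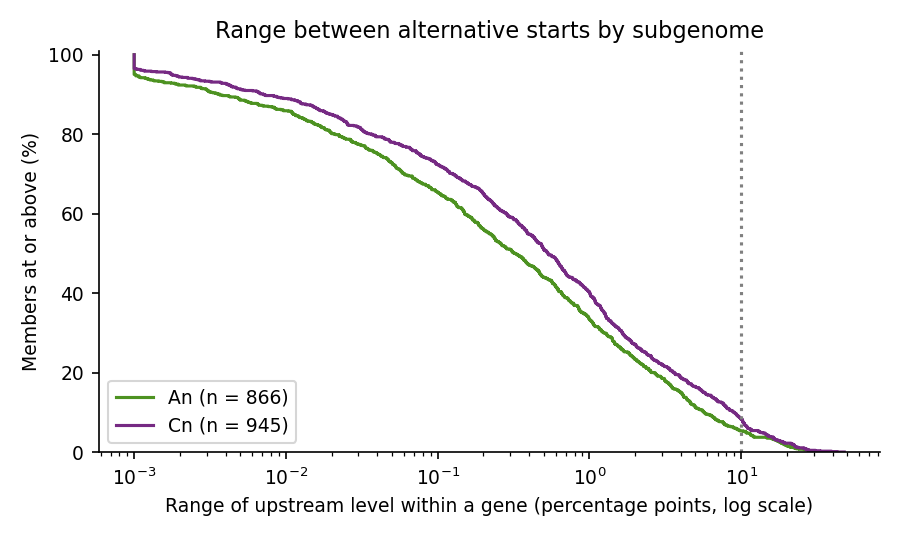
Share of members (y axis, percent) whose range of upstream level is at or above the value on the x axis (percentage points, log scale, ranges under 0.001 drawn at 0.001), for An (866 members) and Cn (945 members). The dotted line marks 10 points, which 5.43% of An and 8.36% of Cn members reached.

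Single bins differed more than means. The largest difference in any upstream bin had a median of 2.21 points. It was under 0.1 points in 271 of 1819 members and 10 points or more in 417. In 11 of all 1823 members the starts differed only by a missing value, and those among them with a difference (of 0) are counted in the 271. At the threshold itself, the members just inside were BnaC04G0229400ZS, BnaC07G0235100ZS and BnaC07G0026900ZS, with ranges of 10.2, 10.2 and 10.1 points. Those just outside were BnaC03G0785300ZS, BnaC09G0104900ZS and BnaC06G0247700ZS, with 9.97, 9.95 and 9.87 points.

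Inner starts were on average lower than the outer start of the same gene. The mean upstream level was 10.4% at outer starts (median 6.79%) and 8.85% at inner starts (median 4.81%, inner starts averaged per gene, 1810 members). The difference, inner minus outer, had a mean of -1.55 points (SD of chromosome means 0.590) and a median of -0.113 points. The chromosome means ran from -2.69 to -0.671, so the inner starts were lower on each of the 19 chromosomes. The inner level was lower in 1219 members (67.3%), higher in 585 (32.3%) and equal in 6. Among all genes with several transcripts those counts were 30.3% lower and 14.5% higher. The inner level was lower by 10 points or more in 97 members and higher by as much in 12.

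Over members, the levels of outer and inner starts rose together (Pearson's *r* = 0.893, Spearman's rho = 0.897, 1810 members). These points share 1 library and, in part, the same cytosines. In 782 members (43.2%) every start was under 5%, in 243 (13.4%) every start was at 20% or more, and 750 (41.4%) had other combinations, apart from the 36 with a start on each side that are described further on. The start with the highest flank belonged to BnaA10G0181300ZS, with 58.2% at the outer and 57.0% at the inner start. Its bins 1 to 3 were identical at 37.4%, 66.9% and 73.6%, and only bin 4 differed, at 54.8% and 50%. At the other end, 6 members had a level of 0 at every start, each with a bin lacking a value. Among members with a value in every bin, BnaA07G0335300ZS had the lowest levels, with 0.0803% in bin 1 of its outer start and 0% in every other upstream bin of both starts.

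By means, the difference was larger in the 2 bins nearest the start than in the farther bins. By medians it was 0 in bins 1 to 3 and -0.0592 points in bin 4. The share of inner starts differing by 10 points or more was 10.1%, 9.95%, 12.3% and 9.63% in bins 1 to 4. Over all inner starts the mean difference from the outer start was -0.813 and -0.906 points in bins 1 and 2, and -2.16 and -2.31 points in bins 3 and 4. Outer starts had mean levels of 11.1%, 10.98%, 11.3% and 7.82% in bins 1 to 4, followed by 1.42% in the first body bin. Inner starts had 10.6%, 10.1%, 9.09% and 5.50%, followed by 1.52%. Both kinds of start thus had a drop into the transcript body, and over all inner starts it began farther upstream. This did not hold for the largest group described below, inner starts whose first exon ended with that of an outer transcript. They had 11.7%, 11.6%, 11.4% and 7.20% in bins 1 to 4. Inner starts at the second exon had 10.3%, 9.64%, 7.04% and 3.70%.

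Where the inner start lay in the gene was read from its first exon. The end of that exon was matched to the exon ends of transcripts from the outer start, a grouping chosen after the data had been seen. The first exon ended with the first exon of an outer transcript in 944 of 2290 inner starts (41.2%), with the second exon in 557 (24.3%), with the third or a later exon in 216 (9.43%) and with none of them in 459 (20.04%). Another 114 could not be placed. Only the end of the exon was matched, so the start itself may lie farther upstream than the exon of that number.

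Inner starts whose first exon ended with that of the outer transcript hardly differed from the outer start. Their mean difference was -0.415 points (SD of chromosome means 0.226, 938 starts), and 6 (0.640%) differed by 10 points or more. For the second exon the mean difference was -1.83 points (SD 0.939, 553 starts) and 41 (7.41%) differed by 10 points or more, of which 30 were lower and 11 higher. For the third or a later exon the mean difference was -7.08 points (SD 2.89, 214 starts) and 70 (32.7%) differed by 10 points or more, all 70 lower. The SD of the chromosome values of this share was 17.0 points. The largest rise in this group, 9.97 points in BnaC03G0785300ZS, was just under the threshold. Inner starts with no matching exon end differed by -0.961 points (SD 1.53, 459 starts), with 17 lower and 7 higher by 10 points or more.

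**Figure D2:**
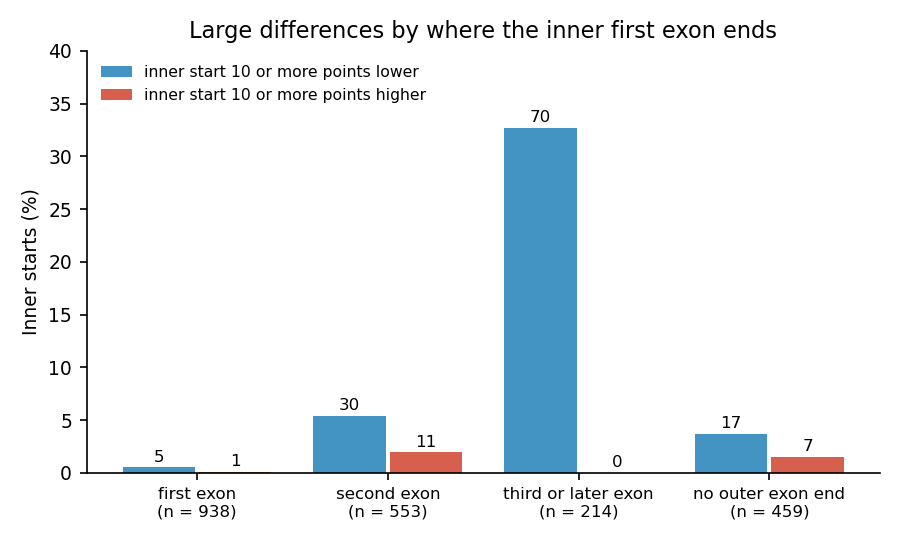
Percent of inner starts (y axis) that were 10 or more points lower (blue) or higher (red) than the outer start of their gene, by the exon of an outer transcript at which the inner first exon ends (x axis, number of starts in parentheses). Numbers on the bars are counts of starts, and the third or later exon stands out with 70 lower and 0 higher. Flanks of inner starts can overlap the gene body, and inner starts that could not be placed are not drawn.

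For starts at the third or a later exon, the outer flank had a mean level of 10.9%, the inner flank 3.83% and the body of the gene 2.34%. By medians the levels were 8.12%, 1.59% and 1.76%. The inner flank was thus far below the outer flank by either average, and it was above the body by means and below it by medians. Where the outer start is the outermost, such an inner flank lies at least in part within the span of the gene row. It can then share cytosines with the gene body, so its level is not that of a separate promoter region. From bin 1 to bin 4 the inner flank went from 6.48% to 4.54%, 2.41% and 1.61%, while the outer flank of the same genes had 11.4%, 10.9%, 11.5% and 7.94%. The inner flank was lower in 155 of the 214 (72.4%). Its median difference was -4.00 points, against -0.593 for the second and -0.0189 for the first exon.

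**Figure D3:**
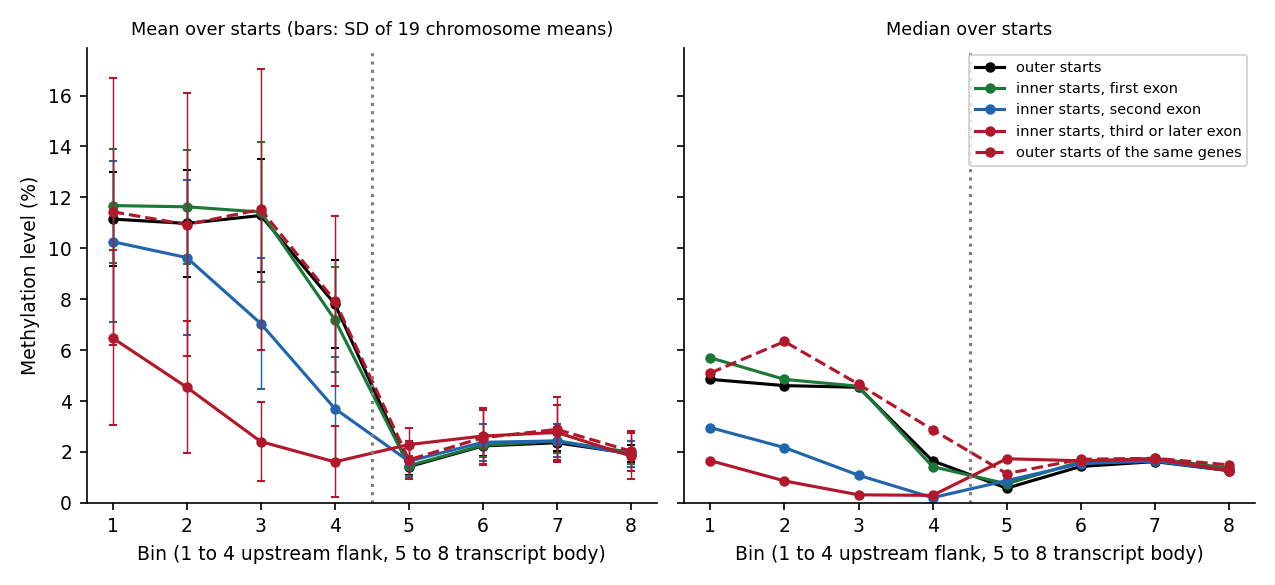
Methylation level (y axis, percent) by bin (x axis, 1 to 4 upstream flank, 5 to 8 transcript body, dotted line at the start), as means with the SD of 19 chromosome means (left) and as medians (right), for outer starts, for inner starts by the exon at which their first exon ends, and for the outer starts of genes with an inner start at the third or a later exon (dashed). At the third or a later exon the inner mean falls from 6.48% in bin 1 to 1.61% in bin 4, and the dashed line stays between 7.94% and 11.5%. Flanks of inner starts can overlap the gene body.

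**Figure D4:**
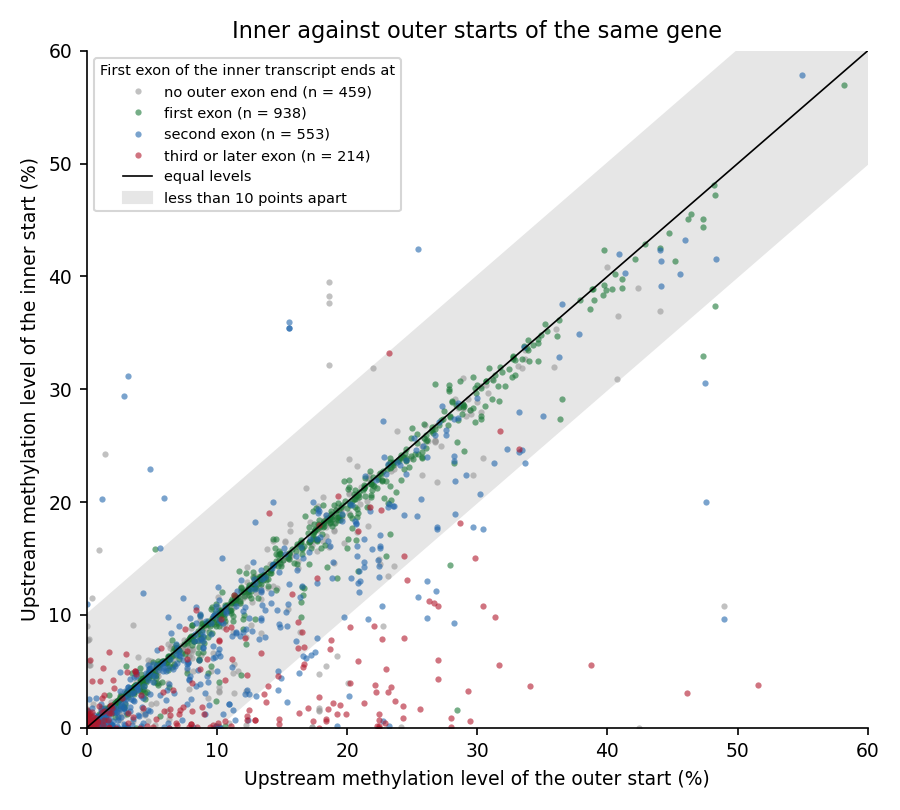
Upstream level of each inner start (y axis, percent) against that of the outer start of its gene (x axis, percent), 1 point per inner start, coloured by the exon at which the inner first exon ends. The grey band holds starts less than 10 points apart, and the points below it are mostly starts at the third or a later exon (70 of 214) and at the second exon (30 of 553). The 110 inner starts with a level that could not be placed are not drawn. Of these, 7 were lower and 0 higher by 10 points or more.

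In 36 of 1811 members (1.99%) one start was at 20% or more and another under 5%, which was 0.894% of genes with several transcripts. The count depended on the bins and the thresholds used, with 65 members for the 2 bins nearest the start, 66 for the nearest bin alone and 5 for levels of 30% and 5%. The outer start was the methylated one in 31 of them and the unmethylated one in 5. There were 16 in An and 20 in Cn. Of their 48 inner starts, 26 were at the third or a later exon. The 31 with a methylated outer start had low gene bodies (median 1.45%, highest 5.14%). The 5 with an unmethylated outer start had gene bodies of 5.48% to 18.5%. Where the outer start is the outermost, an inner flank lies at least in part within the span of the gene row. Inner flank and gene body can then share cytosines, so this contrast is not independent of the levels that chose these members.

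The largest differences with a value in every bin show both kinds. Identifiers in the table carry no gene names, so these genes are described by their values only. BnaC03G0150600ZS, a gene of 20 exons, had 43.0%, 50.3%, 48.2% and 28.3% in the flank of its outer start, which 3 transcripts used. The inner start of its other transcript had 0% in all 4 bins. The range of 42.5 points rested on a single inner start. Larger or similar ranges, 47.8 points in BnaC07G0548000ZS and 43.1 points in BnaA03G0301400ZS, came from flanks that lacked a bin.

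In BnaA03G0096200ZS the outer flank rose towards the start, from 11.2% to 24.5%, 33.6% and 42.6%. The inner transcript of 2 exons began inside a gene of 9 exons and had 0.218%, 0%, 0% and 0% in its flank, with 0.783% in the gene body. BnaA06G0331400ZS had 22.5%, 23.4%, 24.1% and 47.9% before the outer start and at most 0.980% in any bin before the inner start. BnaC04G0209000ZS likewise had 19.2%, 32.5%, 41.6% and 18.7% against 2.23%, 0.388%, 0% and 0.689%. In these 3 genes the inner start was at the third or a later exon, and both inner flank and gene body were below 5%.

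BnaA03G0088700ZS, with 39 exons, had 13.9%, 14.4%, 66.4% and 41.4% at the outer start and 10.4%, 0%, 0.454% and 4.12% at the inner one. The highest bin of the outer flank was thus bin 3, and no inner bin came near it. BnaC09G0350700ZS had 20.1%, 57.6%, 77.2% and 40.9% before its outer start. Its inner starts had mean levels of 9.61% and 10.8%, and in both only bin 1 exceeded 20%, at 26.0% and 27.7%. In BnaA09G0119400ZS the inner flank kept one strongly methylated bin, with 60.3%, 19.6%, 0.121% and 0%, against 30.04%, 45.3%, 64.0% and 50.9% at the outer start. That bin was the one farthest from the inner start, and whether it covers the same cytosines as a bin of the outer flank was not determined.

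BnaA10G0057400ZS had 92.9%, 58.3%, 12.1% and 0% before the outer start and 0%, 0.625%, 13.4% and 23.0% before the inner one. The order of the bins was opposite in the 2 flanks, and this gene had a body of 14.1%.

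**Figure D5:**
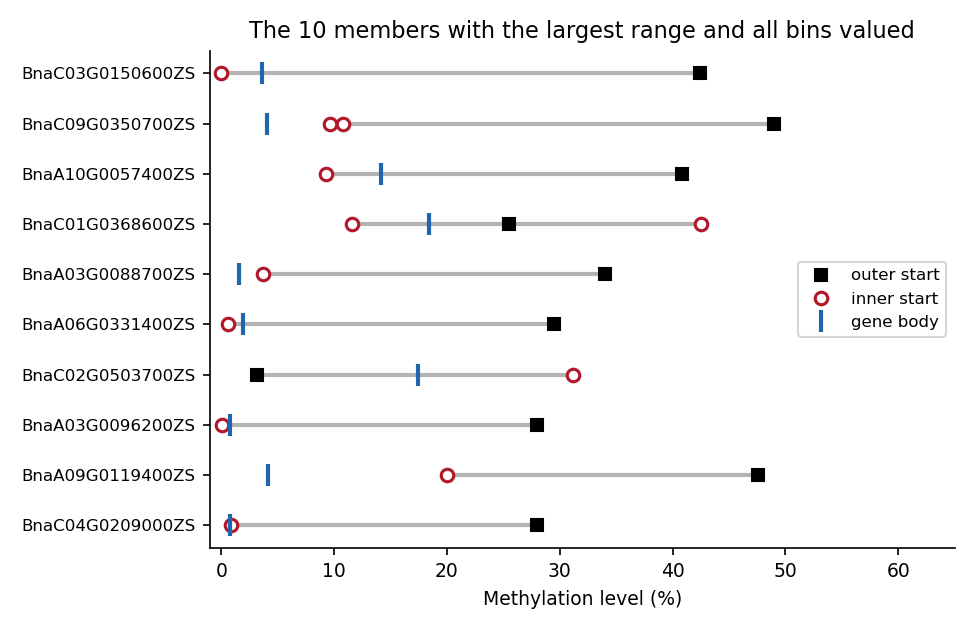
Upstream methylation level (x axis, percent) of the outer start (black squares) and the inner starts (open circles), and gene body level (blue ticks), for the 10 members with the largest range and a value in every bin (y axis). In 8 of the 10 every inner start lies below the outer start, in BnaC02G0503700ZS the inner start is higher (31.2% against 3.20%), and in BnaC01G0368600ZS the inner starts lie on both sides.

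In other members the order was the opposite. In BnaC02G0503700ZS the outer flank had 2.37%, 0%, 3.13% and 7.30%, and the inner flank 18.6%, 37.9%, 35.9% and 32.3%, with a gene body of 17.4%. BnaC01G0509600ZS had at most 2.30% in any outer bin and 25.4%, 28.3%, 23.4% and 19.9% in the inner ones, with a gene body of 18.5%. BnaC06G0056700ZS had a mean of 2.85% at the outer and 29.4% at the inner start, where bins 3 and 4 were at 47.6% and 55.4%, and a gene body of 7.74%. These 3 were the members with the highest gene bodies among the 36, and in each the inner start was the methylated one. The inner flank can share cytosines with the gene body, so these levels are not independent.

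BnaC01G0368600ZS had 3 starts at different levels. The outer start was at 25.5%, one inner start at 11.6% and the other at 42.5%. In the lower inner flank only bin 4 was methylated, at 46.0%, whereas the higher one had 46.0%, 46.7%, 29.7% and 47.5%. The average of the inner starts was close to the outer level, with a mean difference of 1.56 points beside a range of 30.9 points.

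Members with 6 starts differed in how far apart the levels of their starts lay. The inner starts of a gene were not ordered by position, so levels are listed by size. In BnaC07G0366700ZS the outer start was at 17.9% and its 5 inner starts at 1.5003% to 4.79%. In BnaC09G0457100ZS the starts were at 10.3%, 10.0%, 9.91%, 6.36%, 0.0591% and 0.0240%, and almost all of the signal was in bin 1, at 40.4%, 39.7%, 39.2% and 24.97% for the 4 higher starts. In BnaA09G0262300ZS all 6 starts lay between 17.2% and 23.9%, and in BnaC05G0179800ZS between 3.19% and 10.2%. BnaA01G0143800ZS, with 5 starts, lay between 27.3% and 30.3%.

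Ranges were somewhat wider in Cn than in An members, by an amount that depended on the average used. The median range was 0.326 points in An (SD of chromosome medians 0.235, 866 members) and 0.536 in Cn (SD 0.135, 945 members), and the difference of 0.210 points was within the larger SD. The mean range was 2.11 points in An and 2.72 in Cn, and that difference of 0.612 points was above the larger SD of chromosome means (0.497). A range of 10 points or more was found in 47 An members (5.43%) and 79 Cn members (8.36%). The outer starts themselves were lower in An (8.97%) than in Cn (11.7%), as were the inner starts (7.66% and 9.94%). The mean of inner minus outer was -1.31 points in An (SD of chromosome means 0.503) and -1.76 in Cn (SD 0.628), and inner starts were lower in 66.0% of An and 68.6% of Cn members. At the third or a later exon the mean difference was -5.81 points in An (106 starts) and -8.33 in Cn (108 starts).

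Members resembled the other genes with several transcripts in level. The gene row of members had a mean upstream level of 10.4% (SD of chromosome means 1.82), a body level of 2.03% (SD 0.280) and a downstream level of 7.20% (SD 1.45). Genes with several transcripts and 1 flank had 10.3%, 1.99% and 6.79%. Genes with 1 transcript had 9.99% upstream, 4.66% in the body and 8.38% downstream. Of all genes, 18% had an upstream level of 20% or more and 7.99% a body level of 20% or more. Among members these shares were 19.5% (354 of 1812) and 0.330% (6 of 1819). The body share was 0.223% (5 of 2247) in genes with several transcripts and 1 flank. In genes with 1 transcript and a 5′ UTR row it was 0.514% (59 of 11479).

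The lower mean body level of members than of genes with 1 transcript went with the annotation. A 5′ UTR row was present in 100% of members and 12.5% of genes with 1 transcript, and the median number of exons was 10 and 3. The 11615 genes with 1 transcript and a 5′ UTR row had a body level of 1.74% and an upstream level of 9.44%. The part of expression, length or annotation evidence in this difference was not tested. By medians the order was reversed, with 1.49% in member bodies and 0.672% in genes with 1 transcript.

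The ends of the transcripts were not used to choose members. The downstream bins also differed between transcripts in 678 of 1823 members (37.2%) and in 589 of the 2268 genes with 1 flank (26.0%), against 31% of all genes with several transcripts. Members had more transcripts per gene, and with exactly 2 transcripts the shares were 32.4% (335 of 1033) and 22.6% (385 of 1700). In members with differing ends the downstream range had a median of 0.130 points, and 18 of 676 (2.66%) reached 10 points. Over all 1811 members with an upstream range, that range had a median of 0.444 points and 6.96% reached 10 points. These are different sets of members, so the values are not a comparison within the same genes. A range of 10 points at both ends of a gene was found in 2 of 672 members.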

How the data were processed

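DNA methylation was analysed in 1 BS-seq library of *B. napus* young leaves, and the libraries of *B. rapa* and *B. oleracea* were not used. According to the methods, the authors filtered reads with Fastp and mapped them to the ZS11 genome with BatMeth2, and the submitters' processing notes name SAMtools. The authors deposited the methylated fraction of cytosines in 12 bins per gene, transcript, exon and UTR. Coverage, context, bin width and conversion rate were not given in the sources used here, so depth is unknown and no interval was computed.

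Members and lists were chosen with earlier results of these data known. All 1823 gene rows of members had the upstream bins of one of their transcripts, and in 208 the ends came from different transcripts. In 71035 of 71035 transcripts the first exon had the same upstream bins as the transcript. Genes on unplaced scaffolds (3153) were left out. Alternative starts cannot be seen where all flank bins are 0 or missing, as in 195 genes with several transcripts and 1 flank. A start was called methylated at 20% or more and unmethylated under 5%.

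Genes named were those with the largest ranges and all bins valued (10) and the most starts (5). The highest and lowest levels with every bin valued were also listed (5 each, of which 1 each is given). Further lists were the highest gene bodies among members with a methylated and an unmethylated start (3) and members of listed tetrads. The last were members with listed promoter sites (5, of which the 2 with a CG are given) and the 3 on either side of the threshold. BnaC07G0548000ZS and BnaA03G0301400ZS were named after their values were seen. Site sequences came from the study's supplementary site table. Steps were tested on simulated data. Alternatives were other requirements on missing or 0 bins, parts of the flank, definitions of different starts, thresholds and averages. Calculations used Python with numpy and pandas, and figures matplotlib.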

Additional observations from a re-analysis of the deposited data

How the results depend on the processing

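Of 76 recalculations, 54 stayed within the chromosome SD (for counts, within 1.5 times), 19 moved and 3 reversed. The reversals concerned differences from other genes when medians replaced means: the upstream difference from genes with 1 transcript became -0.127 points (from 0.395), and the body differences became -0.00858 points from genes with several transcripts and 1 flank (from 0.0384) and 0.817 points from genes with 1 transcript (from -2.63). Inner minus outer stayed negative under every alternative that was run. With the 2 bins nearest the start it was -2.18 points, the share with a range of 10 points was 10.4% and 65 members had a methylated and an unmethylated start. With the nearest bin alone these were -2.26 points, 10.2% and 66 members, and 60.2% had a lower inner start. Requiring starts to differ in all 4 bins left 974 members, with a median range of 1.08 points, 10.99% at 10 points or more and inner minus outer of -2.35 points. The mean range was 2.42 points and the median of inner minus outer -0.113 points. Ordering starts by shared coding exons gave -2.18 points in only 26 members, with an SD of chromosome means of 5.46. In 28 pairs that could be ordered, the transcript with the gene row's start began coding upstream in 17 and downstream in 11. The cause was not tested, and this order is that of first coding exons and not of transcript starts. Without the members called at 10 points, an alternative chosen after seeing the data, inner minus outer was -0.738 points. Thresholds of 5 and 20 points gave 14.0% and 2.04% of members, and levels of 30% and 5% gave 5 members. Cn minus An of the mean range was 0.612 points, above the SD of 0.497. No paired analysis was possible because there was 1 library, and a coverage minimum was not run without coverage.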

Other observations

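Among the 1998 homoeologous tetrads at hand (part of the study's list), 2 had alternative starts in both the An and the Cn gene. In the first, BnaA02G0258200ZS had 19.03% at the outer and 19.2% at the inner start, and BnaC02G0350500ZS had 22.5% at both. In the second, BnaA02G0291500ZS had 8.29%, 6.05%, 3.03% and 0% before the outer start and 19.6%, 13.9%, 7.43% and 6.80% before the inner one. Its Cn partner BnaC02G0398600ZS had 18.2%, 12.8%, 5.27% and 0.302% at the outer and 13.5%, 15.1%, 3.905% and 5.30% at the inner start. In this tetrad both inner first exons ended with the second exon of the outer transcript, both inner starts had a 5′ UTR row and both outer starts had none. The bin next to the start was higher at the inner start in both genes, and the mean level rose by 7.60 points in the An gene and 0.312 points in the Cn gene. The gene bodies were at 7.73% and 6.55%.

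Some inner flanks shared an identical nonzero bin value with the outer flank of the same gene. Among 2290 inner starts, 51 shared such a value at a shift of 1 to 3 bins and 392 at the same bin. None shared one only at a negative shift, that is, nearer the start in the inner than in the outer flank.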
